A study of Mus musculus with 10 samples.

Results

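Alpi, Akp3 and Alpl are 3 of the mouse genes that encode alkaline phosphatases. They were taken by name from the 54838 genes quantified in each library. Each library held RNA from the jejunal crypts of 1 mouse, with 5 WT and 5 Arid3a cKO animals in all. The cKO mice were VillinCre-ERT2+/-; Arid3a fl/fl, in which tamoxifen activates a Cre recombinase driven by the Villin promoter, so that the floxed alleles are lost in intestinal epithelial cells and not in stroma or leukocytes. Animals of both genotypes received tamoxifen on 3 consecutive days and were killed 1 month after the first injection. The labels do not say whether WT animals carried the Cre transgene or floxed alleles, and they give no age. Animal codes of the 2 genotypes come from different series, and the labels do not say whether the animals were littermates. Any difference of colony or litter therefore cannot be told apart from genotype. The villi had been removed by scraping, so that mostly crypts remained, and polyadenylated RNA was sequenced.

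Alkaline phosphatases remove phosphate groups from substrates outside the cell. They are glycoproteins with zinc and magnesium in the active site and are held at the outer face of the plasma membrane by a glycosylphosphatidylinositol (GPI) anchor. The intestinal enzymes sit on the brush border of enterocytes, where they dephosphorylate bacterial lipopolysaccharide (LPS) and nucleotides, take part in fat absorption and are a classical histochemical mark of differentiated enterocytes. Alpi and Akp3 encode intestinal enzymes, Alpl encodes the tissue-nonspecific enzyme of bone, liver and kidney, and Alppl2 encodes a form known from early embryos. Alppl2 was described here as the remaining member of the family.

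Alpi, Akp3 and Alppl2 lie side by side on chromosome 1 of GRCm38. Alpi (ENSMUSG00000079440) spans positions 87098002 to 87101606 on the minus strand, with 11 exons and 1 annotated transcript of 2337 bases. Akp3 (ENSMUSG00000036500) spans 87124973 to 87127912 on the plus strand. Its protein-coding transcript has 11 exons and 1680 bases, and the annotation gives it no untranslated region, while Alpi has 672 bases of untranslated exon. The start sites of Alpi and Akp3 were 23367 bases apart and pointed away from each other. Alppl2 (ENSMUSG00000026246) spans 87086694 to 87089928 on the minus strand. Alpl (ENSMUSG00000028766) lies apart from the cluster, on chromosome 4 at 137741733 to 137796384 on the minus strand, with 8 annotated transcripts.

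The sequence similarity of the intestinal pair bears on the counts of Alpi and Akp3 below. The main transcripts of Alpi and Akp3 were identical at 81.8% of 1653 aligned bases, against 62.8% for Alpi and Alpl. The longest identical run between Alpi and Akp3 was 68 bases. Of the 50-base words in the Alpi transcript, 35 (1.53%) also occurred in Akp3, and no word of 75 or 100 bases did. The difference between annotated and effective length in the deposited tables was 98 to 98.6 bases, which is the mean fragment or read span that RSEM assumed. Expected counts of Alpi were fractional in 7 of 10 libraries and those of Akp3 in 7 of 10, while their sum was whole in 10 of 10, within 0.015 counts. RSEM thus divided some reads between these genes, and the summed count of the pair does not depend on that division.

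The study's quantitative PCR primers for mouse Alpi are shown because they fall on this shared sequence. Positions are counted from 1 at the 5′ end of each primer, and capitals in the Alpi sites mark bases that differ from the primer.

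Forward primer: atcatcttcctgggtgacgg

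Site in Alpi: atcatcttcctgggAgacgg

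Reverse primer: cgccgatggtcttgtagttg

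Site in Alpi, read in the direction of the reverse primer: Ggccgatggtcttgtagttg

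Both primers matched the Akp3 transcript with 0 mismatches. The forward primer differed from Alpi by T15A and the reverse primer by C1G, and either transcript would give a product of 226 bases. The best site in Alpl had 3 mismatches to the forward and 7 to the reverse primer, and in Alppl2 there were 6 and 6. How the primers behave in a reaction was not tested.

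The promoters are shown because the 2 intestinal genes rose together. The 150 bases before the RefSeq start site are printed 5′ to 3′ on the gene's strand (GRCm38.p6). Capitals mark CAAAGT or its reverse complement ACTTTG, a word taken here to stand for HNF4.

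Alpi, chr1:87101607-87101756, minus strand: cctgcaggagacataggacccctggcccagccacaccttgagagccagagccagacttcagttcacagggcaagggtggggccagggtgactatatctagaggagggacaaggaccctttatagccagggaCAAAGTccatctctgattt

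Akp3, chr1:87124804-87124953, plus strand: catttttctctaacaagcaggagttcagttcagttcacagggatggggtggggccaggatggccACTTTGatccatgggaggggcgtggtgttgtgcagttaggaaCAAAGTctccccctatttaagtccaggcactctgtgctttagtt

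Alppl2, chr1:87089929-87090078, minus strand: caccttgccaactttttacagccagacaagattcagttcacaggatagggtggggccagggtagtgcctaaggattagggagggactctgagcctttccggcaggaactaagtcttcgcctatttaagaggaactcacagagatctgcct

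The Alpi promoter held CAAAGT at -19 from the start site. The Akp3 promoter held it at -44 and, on the opposite strand, at -86. In windows of 300 bases around the start, most of it upstream, Alppl2 had no match, and each of the 2 Alpl promoters in the table had 1. Searched on both strands, the word occurred in 14.4% of 32851 promoters of the same length. ATTAAA, an A+T rich word of the ARID3A type, was in the Alppl2 window, at position 23 after the start site, and in 13.9% of all. It was not in the Alpi or Akp3 window. The word of CDX factors, TTTATG, was also missing from both windows and was carried by 11.9% of all promoters. The same held for the GATA word, which reads AGATAA and occurred in 11.2% of all. TATAAA was found at -33 in Alpi on the opposite strand and not in Akp3, with a share of 13.6% of all. The short KLF word CACCC was found in both and in 57.5% of all.

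The longest run common to the Alpi and Akp3 windows was ttcagttcacaggg, 14 bases from -94 in Alpi and from -122 in Akp3. It was not particular to this pair: Alppl2 shared 13 of these bases with Akp3, and shared a longer run of 16 bases with Alpi. These matches describe letters and were not tested for binding.

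The expected counts summed to 27050455 to 28152743 in WT and 28314069 to 31053622 in cKO libraries, every cKO total being above every WT total. Arid3a, the deleted gene, had 55 to 81 counts in WT and 9 to 31 in cKO libraries, a log2 fold change of -1.84. The tissue label was checked against markers: Olfm4, a crypt base marker, was among the abundant genes of both genotypes (3153 TPM in WT and 1931 TPM in cKO). Enterocyte genes were also abundant, and their values are given beside the members below. In bulk RNA, a larger share of cells of a type and more RNA per cell cannot be told apart.

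Alpi was higher in every cKO animal than in every WT animal. Normalised read counts (CPM on TMM-normalised library sizes) were 428, 466, 279, 209 and 337 in WT replicates 1 to 5. In cKO replicates 1 to 5 they were 1346, 920, 1199, 1659 and 980. The lowest cKO animal thus stood well above the highest WT animal, and the spread within a genotype was alike, with a coefficient of variation of 30.7% in WT and 24.4% in cKO. The WT mean of 344 ± 106 CPM compared with 1221 ± 298 CPM in cKO (SD, n = 5 for both), a 3.55-fold rise. The log2 fold change was 1.83 (SE 0.24, edgeR quasi-likelihood test, Benjamini-Hochberg adjusted p = 0.000981). Depth did not limit this value, since 6238 to 48775 reads per library were assigned to Alpi.

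Akp3 rose more on average and differed more among cKO animals. It stood at 226, 156, 133, 191 and 169 CPM in WT replicates 1 to 5. The cKO replicates 1 to 5 had 1179, 639, 1386, 1746 and 390 CPM. The groups did not overlap, but cKO replicate 5 was much nearer to the WT animals than cKO replicates 1, 3 and 4 were. The coefficient of variation was 20.2% in WT and 51.7% in cKO. The mean rose from 175 ± 35.3 to 1068 ± 552 CPM, a 6.11-fold difference, and the log2 fold change was 2.61 (SE 0.39, edgeR adjusted p = 0.00223).

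Alpl was at or near the limit of detection in these crypts. It had 2, 7, 4, 1 and 0 counts in WT replicates 1 to 5 and 1, 0, 4, 4 and 3 in cKO replicates 1 to 5. The groups overlapped almost fully, and no library exceeded 0.25 TPM. A count of 0 allows up to 3 counts, and with counts this low no ratio of the group means is given. Alpl was the member that did not pass the filter on low counts. In a fit without that filter its log2 fold change was -0.18 (SE 0.86, edgeR adjusted p = 0.926), which leaves even large changes undetectable at this depth.

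Of the 3 members, 2 passed the filter and both were called higher in cKO. Over all genes tested, 28.3% of 14719 were called in either direction and 15.6% were called higher, so a call by itself was common. Groups that did not overlap, with cKO higher, were found for 12.0% of all genes. The sizes were less common: by log2 fold change Akp3 ranked 16 and Alpi 120 of 14719, and among the 5388 genes with a mean of at least 1000 counts they ranked 4 and 43. The median log2 fold change of all genes was -0.03. Alppl2, with 33 to 115 counts per library, had a log2 fold change of 0.40 (SE 0.30, edgeR adjusted p = 0.347), and its groups overlapped. Leaving out any 1 animal kept Alpi between 1.69 and 1.96 and Akp3 between 2.36 and 2.82 on the log2 scale, with both called each time.

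**Figure D1:**
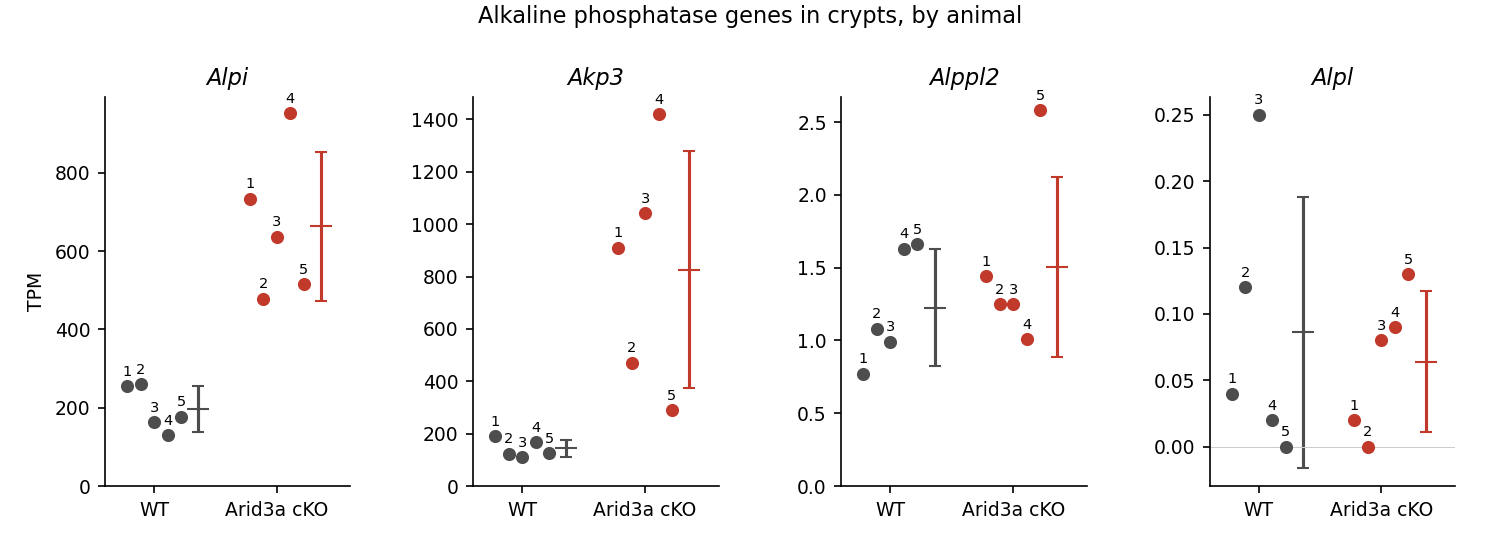
TPM of Alpi, Akp3, Alppl2 and Alpl (vertical axes, linear, each panel with its own scale) in 5 WT and 5 Arid3a cKO animals. Points are animals with their replicate number, and the bar at the right of each group gives the mean and SD. All cKO points of Alpi (478 TPM and above) and Akp3 (290 TPM and above) lie above all WT points, while Alppl2 and Alpl overlap and stay below 3 TPM.

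Levels of different genes were compared per length, in TPM. The order of the family by mean TPM in WT was Alpi (197 ± 57.9), Akp3 (144 ± 34.0), Alppl2 (1.23 ± 0.40) and Alpl (0.086 ± 0.10). In cKO it was Akp3 (827 ± 453), Alpi (663 ± 190), Alppl2 (1.51 ± 0.62) and Alpl (0.064 ± 0.053). In both genotypes the ranges of Alpi and Akp3 overlapped, and which gene was higher differed between libraries of the same genotype, as given below. The order of their means within a genotype was not tested. Every library had more Akp3 than Alppl2 and more Alppl2 than Alpl. Among all 54838 genes, Alpi moved from rank 608 to 219 by mean TPM and Akp3 from 835 to 188.

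The Akp3 to Alpi ratio asks whether the paralogs responded unequally. Akp3 exceeded Alpi in WT replicate 4 and in cKO replicates 1, 3 and 4. The ratio of TPM was 0.747, 0.474, 0.677, 1.29 and 0.711 in WT replicates 1 to 5. It was 1.24, 0.983, 1.64, 1.49 and 0.564 in cKO replicates 1 to 5. On the log2 scale the mean ratio was 0.59 higher in cKO, which did not pass the test (two-sided exact permutation test, p = 0.143, adjusted over 3 ratios p = 0.143). The 95% interval from that test ran from -0.33 to 1.39, so that a change of the ratio between 0.793-fold and 2.61-fold is covered. Without cKO replicate 5 the difference was 0.83 (exact permutation p = 0.0397, unadjusted), so the call depended on that animal. A larger fold change of Akp3 than of Alpi is therefore not established by 5 animals per genotype.

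**Figure D2:**
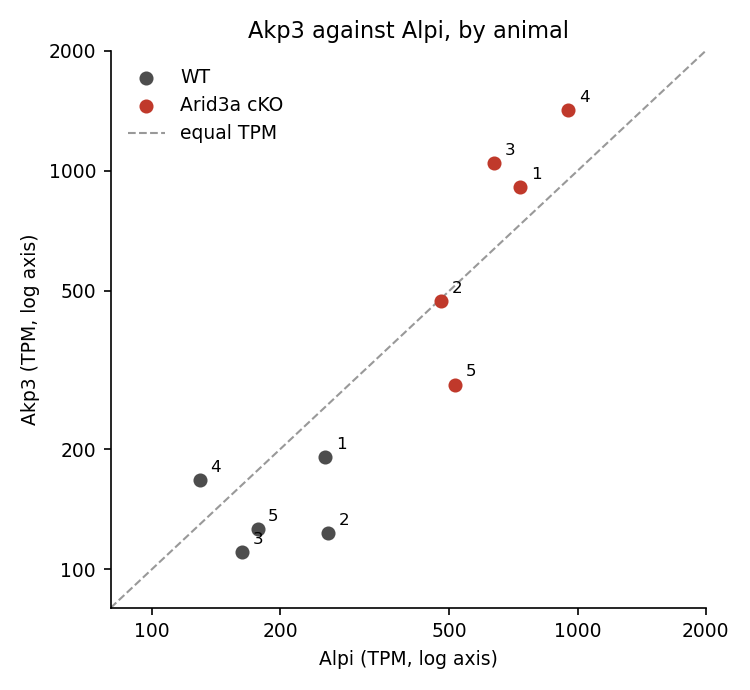
Akp3 against Alpi in TPM (both axes logarithmic) for each of 10 animals, with replicate numbers; the dashed line marks equal TPM. WT replicate 4 and cKO replicates 1, 3 and 4 lie above the line, cKO replicate 2 just below it (ratio 0.983), and cKO replicate 5 below it with a ratio of 0.564.

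The sum of Alpi and Akp3 was read as the total level of intestinal enzyme mRNA. It was 273.72 to 446.07 TPM in WT and 805.51 to 2371.52 TPM in cKO. The groups did not overlap, and the log2 difference was 2.04, or 4.12-fold (exact permutation p = 0.00794, two-sided, which is the lowest p that 5 against 5 animals allow). Summed TPM still depends a little on the division of reads, since the genes differ in length. The summed CPM, which does not, differed by 2.09 on the log2 scale (exact permutation p = 0.00794). Ratios of Alpl to its paralogs fell in cKO, by 1.85 against Alpi (exact permutation p = 0.00794, adjusted p = 0.0238) and by 2.43 against Akp3 (p = 0.0238, adjusted p = 0.0357) on the log2 scale. With Alpl near 0, these 2 differences rest on the pseudocount of 0.1 TPM and on the rise of the other gene.

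The annotated transcript to which reads were assigned differed slightly for Akp3. The second annotated transcript of Akp3 is a 1602-base form with a retained intron, and its assigned share of Akp3 was 2.28% to 3.26% in WT and 1.86% to 2.47% in cKO. It starts at 87124973, before the protein-coding form at 87125008, which has no untranslated region. Reads from the bases between can be assigned only to the 1602-base form, so the share does not measure intron retention. This share was computed from the abundance-weighted length, which was 0.43 bases longer in cKO (two-sided exact permutation test, p = 0.0159, adjusted p = 0.0317). The ranges overlapped, and almost all of Akp3 was assigned to the protein-coding form in each animal. Alpi has a single annotated transcript, and the length of Alpl could not be interpreted at a few reads.

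Alpi and Akp3 were next compared among animals of the same genotype. Centred within genotype, log2 CPM of Alpi and Akp3 had a Pearson r of 0.52 and a Spearman rho of 0.49 over 10 animals (permutation p = 0.125 and 0.156, adjusted over 3 pairs 0.246 and 0.234). The r was 0.85 without WT replicates 4 and 2, which lay farthest from the median. It was 0.13 among the 5 WT animals alone and 0.86 among the 5 cKO animals, given as descriptions. By this measure Akp3 ranked 1643 among the 11947 genes compared with Alpi, and Alpi ranked 296 among those compared with Akp3.

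The 5 genes that varied most like Alpi over the 10 libraries were Cyp4f16, Otop3, Gstm7, Slc46a1 and Xdh, with centred r of 0.93 to 0.95. With 11947 genes ranked over 10 libraries, high r values can arise by chance, and none was tested. Slc46a1 is the proton-coupled folate transporter of the proximal gut and Xdh is xanthine dehydrogenase. All 5 were called higher in cKO, against 15.6% of all genes. Their log2 fold changes ran from 0.79 for Cyp4f16 to 2.14 for Otop3, a proton channel. Those most like Akp3 were Smim27, Ugt2b38, Atp2b1, Ncoa4 and Ankrd39, with r of 0.87 to 0.92. Ncoa4 is the receptor for autophagy of ferritin and Atp2b1 is a plasma membrane calcium pump. Ugt2b38, a glucuronosyltransferase, was 4.02 higher in cKO on the log2 scale, Ncoa4 1.19 and Atp2b1 0.75, all called. Smim27 had 0.27 (edgeR adjusted p = 0.362). Ankrd39 was lower by 0.37 (adjusted p = 0.0428), a call that was lost in 9 of the 10 fits that left out 1 animal. The 2 sets of 5 had no gene in common, which is usual for 2 picks of 5 from so many genes.

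Enterocyte markers other than Alpi rose with the phosphatases. The summed TPM of 9 of them (Vil1, Fabp1, Fabp2, Apoa1, Apoa4, Apob, Sis, Krt20 and Ada) was 4510, 7065, 2137, 1521 and 3537 in WT replicates 1 to 5. The sum was 10262, 10256, 6901, 13982 and 14000 in cKO replicates 1 to 5. WT replicate 2 thus exceeded cKO replicate 3, and the groups otherwise stood apart (two-sided exact permutation test on log2 sums, p = 0.0159). Most of the sum came from Fabp1, Fabp2, Apoa1 and Apoa4. Their mean TPM was 1037, 931, 632 and 443 in WT, of a mean sum of 3754. In cKO it was 2889, 2531, 2159 and 1769, of 11080. Summed crypt markers (stem and cycling genes) moved the other way, from 2933 to 4978 TPM in WT to 2139 to 3220 TPM in cKO (exact permutation p = 0.0159). Olfm4 made up most of this sum. Its mean was 3153 TPM in WT and 1931 TPM in cKO, of mean sums of 4002 and 2551 TPM. The Olfm4 call was lost in 5 of 10 fits without 1 animal. All 10 listed enterocyte markers, Alpi included, were called higher in cKO, and 6 of 10 crypt markers were called lower, with a background of 15.6% and 12.7% of all genes. The crypt markers Lgr5, Mki67, Top2a and Ccnb1 were not called. The enterocyte count fell to 4 without cKO replicate 5 and the crypt count to 3 when WT replicate 3 or 4, or cKO replicate 1, 3 or 5, was left out.

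Each member was then set against these markers. The log2 ratio of Alpi to the enterocyte sum differed by 0.04 between genotypes (exact permutation p = 0.905, 95% interval -0.70 to 0.88). For Akp3 the difference was 0.62 (exact permutation p = 0.373, interval -1.03 to 2.18). These ratios were chosen after the values were seen. Neither test shows that the members and the markers rose by equal amounts, since the intervals are wide. Leaving out each animal in turn gave -0.13 to 0.21 for Alpi and 0.30 to 1.04 for Akp3.

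Centred within genotype, Alpi had an r of 0.68 and a rho of 0.62 with the enterocyte sum (permutation p = 0.0313 and 0.0593, adjusted over 2 genes 0.0626 and 0.119). The r fell to 0.41 without WT replicates 4 and 2, so the relation rests on those animals. Among the 5 WT animals alone r was 0.95 and among the 5 cKO animals 0.18, given as descriptions. Akp3 had an r of -0.14 and a rho of -0.08 (adjusted p = 0.702 and 0.839). The difference between these correlations was not tested. WT replicate 2 and cKO replicate 3 had nearly equal enterocyte sums, but Alpi was 260 TPM in the first and 637 TPM in the second, and Akp3 was 123 and 1043 TPM. These 2 animals had the lowest and the highest log2 ratio of Alpi to the sum (-4.77 and -3.44), and the opposite contrast was found between WT replicate 4 (-3.55) and cKO replicate 5 (-4.76). The animal with the lowest enterocyte sum, WT replicate 4, had the second highest Akp3 of its genotype. The cKO replicates 4 and 5 had nearly equal enterocyte sums, 13982 and 14000 TPM, with the highest and the lowest Akp3 of their genotype, 1420 and 290 TPM. Alpi also differed between these animals, at 952 and 515 TPM.

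**Figure D3:**
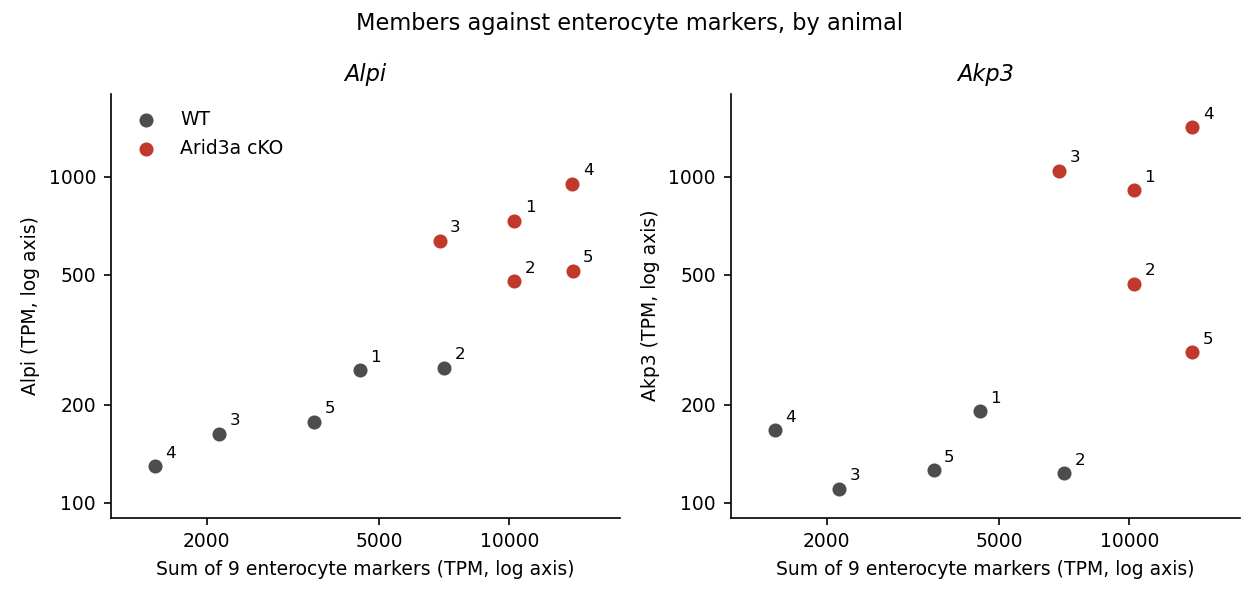
Alpi (left) and Akp3 (right) in TPM against the summed TPM of 9 enterocyte markers (all axes logarithmic), for each animal with its replicate number. Alpi rises with the sum among the WT animals. The cKO replicates 4 and 5 have nearly equal sums and differ in both genes, with 952 and 515 TPM of Alpi and 1420 and 290 TPM of Akp3.

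Brush border hydrolases are the enzymes that share the apical membrane with the phosphatases, and all 14 listed were called higher in cKO. Their median log2 fold change was 1.79 (range 0.85 to 2.37), against -0.03 over all genes, of which 15.6% were called higher. Alpi lay close to this median and Akp3 above the whole range. Mgam, the maltase-glucoamylase, rose from 667 ± 193 to 1487 ± 244 CPM (log2 fold change 1.16, edgeR adjusted p = 0.0021). Tmprss15, the enteropeptidase that activates trypsinogen, rose most, by 2.37 (adjusted p = 0.00344), from 8.12 to 41.9 CPM. Mep1a, a meprin subunit, rose by 1.23 (adjusted p = 0.00348). Anpep, aminopeptidase N, was the most abundant of the list in TPM and rose by 1.32 (adjusted p = 0.0376), a call lost in 7 of 10 fits without 1 animal. The count of 14 dropped to 9 when WT replicate 3, WT replicate 5 or cKO replicate 5 was left out, and to 9 with the replicate number as a block. Centred within genotype, Alpi was positively correlated with 14 of 14 hydrolases (r from 0.44 for Dpp4 to 0.89 for Tmprss15). Akp3 was positively correlated with 2 of 14 (median r -0.10), the highest again being Tmprss15 (0.59). All of these genes were measured in the same 10 libraries and belong to the same cell type. The 14 r values are therefore not separate observations and are given as descriptions. The contrast between Alpi and Akp3 was not tested, and these r values were not computed without WT replicates 4 and 2. The relation of Alpi to the enterocyte sum rested on those animals. Sis stands in this list and among the enterocyte markers.

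A list of transcription factors known from alkaline phosphatase genes and enterocytes was read next. Of 14 tested, 4 were called higher and 0 lower, against 15.6% and 12.7% of all genes. With library size only, or log2 TPM under either pseudocount, 3 were called higher and 2 lower, and with DESeq2 4 and 1. Hnf4g, a nuclear receptor that with its paralog maintains enterocyte genes, rose from 99.4 ± 17.2 to 206 ± 40.4 CPM (log2 fold change 1.05, edgeR adjusted p = 0.000926). Klf4, known to activate the human intestinal gene, rose by 0.70 (adjusted p = 0.00165) and Rxra, the common partner of thyroid hormone and vitamin D receptors, by 0.43 (adjusted p = 0.00188). Gata6 was the fourth (0.31), a call lost with library size only and log2 TPM. Hnf4a was the most abundant and had -0.15 (adjusted p = 0.12). It was called lower with DESeq2, with library size only and with log2 TPM under either pseudocount, 4 of the 10 alternatives that kept all animals. Cdx1, Cdx2, Gata4, Thra, Thrb, Vdr, Zfp148 and Sp1 were among those that did not pass the test.

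The enzymes also depend on genes that finish the protein. The GPI anchor is made and attached by a chain of enzymes in the endoplasmic reticulum. Of 26 such genes tested, 2 were called higher and 0 lower, against 15.6% and 12.7% of all genes. Their median was 0.03, with a range of -0.15 to 0.31. The 2 were Pigc (0.28, edgeR adjusted p = 0.0146) and Pigp (0.25, adjusted p = 0.0366), subunits of the first enzyme. The Pigp call was lost in 6 of 10 fits without 1 animal. Both calls were lost with library size only, which called 0 higher and 3 lower, and with log2 TPM, which called 0 higher and 1 lower. Pigt, a subunit of the transamidase that attaches the anchor, was the most abundant, with 147 CPM among WT animals and 146 CPM among cKO animals. Zinc reaches secreted phosphatases through the transporters Slc30a5, Slc30a6 and Slc30a7. Slc30a5 rose by 0.38 (adjusted p = 0.00181) and its partner Slc30a6 by 0.30 (adjusted p = 0.011), while Slc30a7 had 0.03. The Slc30a6 call was lost with library size only and log2 TPM.

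**Figure D4:**
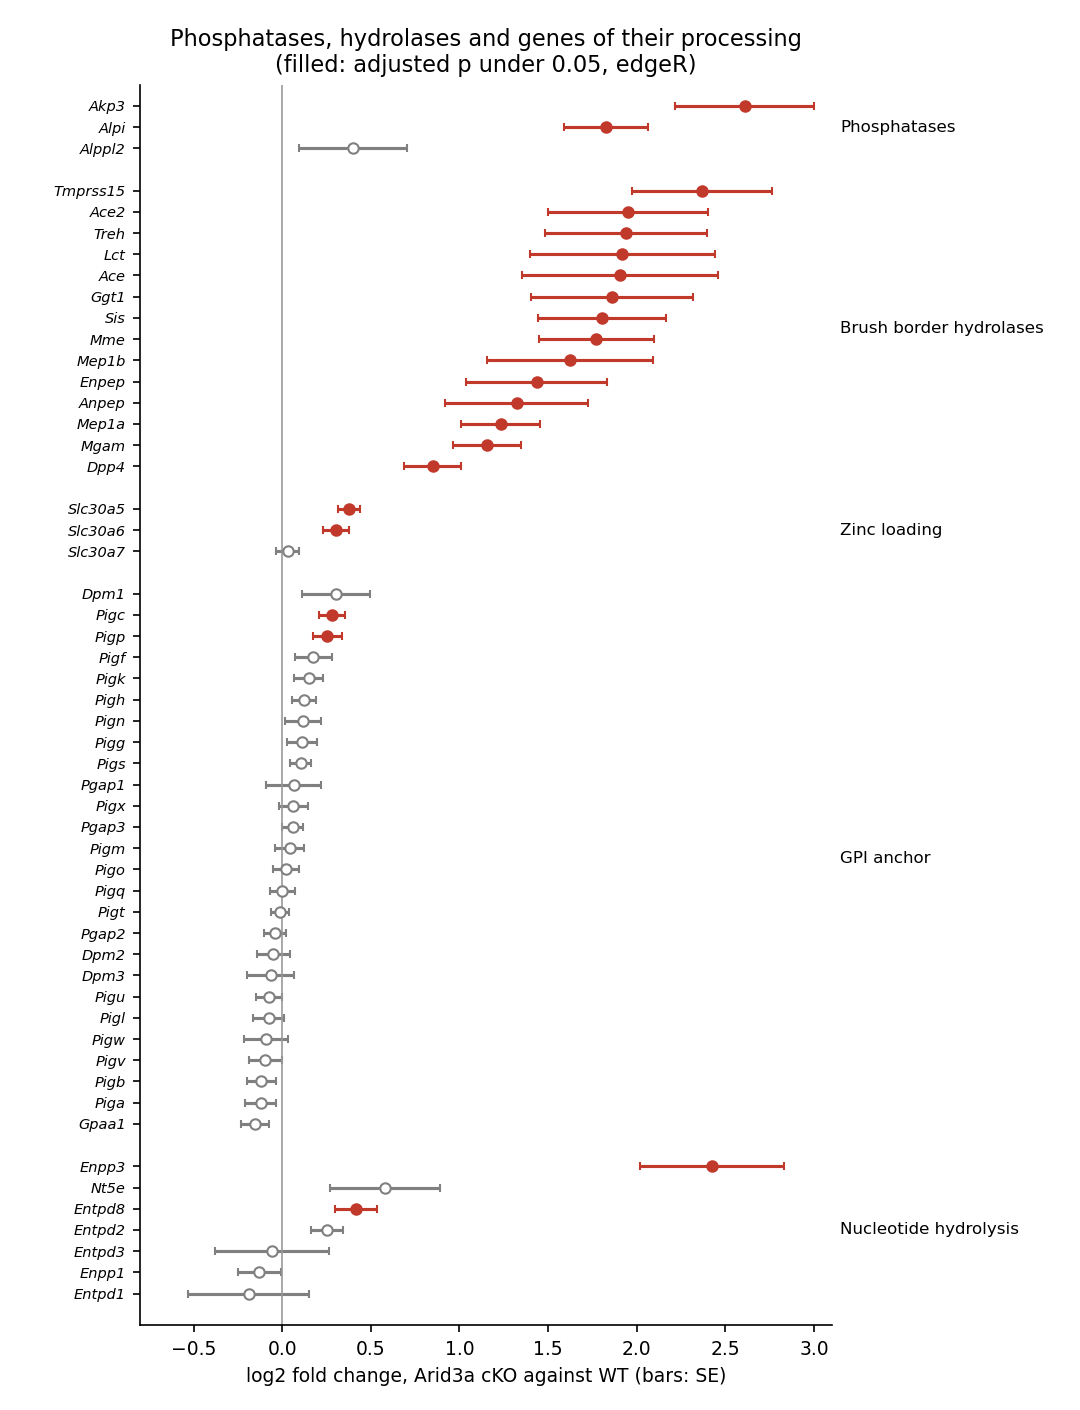
log2 fold change of Arid3a cKO against WT (horizontal axis, bars give the SE) for the tested phosphatases, brush border hydrolases, zinc transporters, GPI anchor genes and nucleotide hydrolases. Filled points passed an adjusted p of 0.05 in edgeR. All brush border hydrolases lie between 0.85 and 2.37, and all GPI anchor genes between -0.15 and 0.31.

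Other enzymes act on the same substrates. Of 7 extracellular nucleotide hydrolases tested, 2 were called higher and 0 lower, against 15.6% and 12.7% of all genes. Enpp3, an apical pyrophosphatase and phosphodiesterase, rose from 22.9 ± 9.10 to 123 ± 58.8 CPM (log2 fold change 2.43, edgeR adjusted p = 0.00366). Entpd8 rose by 0.42 (adjusted p = 0.021), a call lost without cKO replicate 1 (adjusted p = 0.0536) or cKO replicate 4 (adjusted p = 0.0510). Of 7 tested genes of pyrophosphate, vitamin B6 and phosphate handling, 2 were called higher and 1 lower, beside the same shares of all genes. Ank, which exports ATP and so feeds extracellular pyrophosphate, rose by 0.73 (adjusted p = 0.000379). Phospho1, a cytosolic phosphatase of phosphocholine and phosphoethanolamine, rose by 1.33 (adjusted p = 0.0133). Pdxp, which dephosphorylates pyridoxal phosphate inside the cell, fell by 1.12 (adjusted p = 0.0134) from a low level of 2.64 CPM.

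LPS is a substrate of the intestinal enzymes and is sensed through Tlr4. Of 12 genes of LPS recognition and signalling tested, 3 were called higher and 2 lower, against 15.6% and 12.7% of all genes. Ly96, the co-receptor MD-2, rose by 0.73 (edgeR adjusted p = 0.00444). The kinase Irak4 rose by 0.44, a call lost with log2 TPM under either pseudocount, and the adaptor Ticam1 rose by 0.47. Irak1 fell by 0.25 (adjusted p = 0.0115) and Lbp, the LPS-binding protein, fell by 1.35 (adjusted p = 0.0485) at 3 to 40 counts per library, a call lost in 7 of 10 fits without 1 animal. Tlr4 itself had a level of 0.21 CPM in cKO and did not pass the test.

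Genes around the cluster were read for the same interval. Of 13 further genes that overlap the surrounding window on chromosome 1, among them the family's pseudogene Akp-ps1, 3 passed the filter and 1 was called. Over all genes tested, 28.3% were called in either direction. Dis3l2 and Eif4e2, which border the window, had log2 fold changes of -0.09 and -0.05. Ecel1, which lies beyond Akp3 at 87147655 to 87156521, was called higher (1.20, SE 0.39, edgeR adjusted p = 0.0355) at only 3 to 20 counts per library. Akp-ps1 had 0 to 1 counts.

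Markers of position along the gut and of other cell types were read beside these results. The counts here stand beside 15.6% of all genes called higher and 12.7% called lower. Of 7 proximal small intestine markers tested, 3 were called higher (Slc40a1 by 1.91, Lct by 1.92 and Fabp1 by 1.55) and Gata4, which marks the proximal gut, had 0.00. The distal marker Cubn was also called higher (2.22), while Fabp6 and Slc10a2 were not called. Slc40a1, Lct and Fabp1 are genes of mature enterocytes as well, and of 10 fits without 1 animal Fabp1 lost its call in 8, Lct in 4 and Cubn in 2. Summed B and plasma cell markers ranged from 20.2 to 60.5 TPM in WT and from 6.89 to 18.6 TPM in cKO. Of the 6, Jchain (fell by 1.95) and Cd79b (fell by 1.51) were called, the latter not in 3 of 10 fits without 1 animal. Summed T cell markers overlapped (28.4 to 79.2 and 29.4 to 75.9 TPM), with 1 of 6, Cd4, called lower. Of 6 macrophage markers, C1qa and C1qb were called lower, and these calls were lost in 7 and 6 of the same 10 fits. Of 6 fibroblast markers 0 were called at an adjusted p of 0.05 by edgeR. Pecam1 was the 1 of 2 tested endothelial markers called, and Mmp9 the only tested neutrophil marker, both lower, though the Mmp9 call was lost with log2 TPM. Neutrophils carry much alkaline phosphatase of the Alpl type. Their marker Ly6g had 0 counts in every library, while S100a8 (0.092 TPM in WT and 0.302 TPM in cKO) and S100a9 (0.218 and 0.508 TPM) were too low to be tested. The part of these cells in the change of Alpi and Akp3 was not tested.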

How the data were processed

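The 10 libraries were made from polyadenylated RNA of crypts. The authors aligned reads with STAR and deposited RSEM expected counts, TPM and FPKM per gene, with gene lengths, on GRCm38; expected counts were not normalized between libraries, and the deposited FPKM values were not used. The strand setting is not given in the sources used here. Genes without a symbol held 0.0193% of counts.

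Expected counts were rounded and tested in R 4.3.3 with edgeR 4.0.16 (filterByExpr with minimum count 10 and minimum total 15, TMM, robust quasi-likelihood, Benjamini-Hochberg over 14719 genes, threshold 0.05). Levels are CPM (mean ± SD), or the deposited TPM where genes were compared; ratios used a pseudocount of 0.1 TPM. Single values were compared by exact permutation over all assignments (smallest p 0.00794), computed in Python 3.11.15 with scipy 1.17.1. Totals of 27050455 to 31053622 counts per library leave a large counting error for Alpl, Alppl2 and Arid3a, and the limit of 3 counts covers counting error only. Transcripts were taken from GENCODE for GRCm38 and promoters from RefSeq (GRCm38.p6); all 4 genes of the family matched. Transcripts were aligned with Biopython 1.88.

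Members and gene lists were chosen with earlier results of these data known. Genes named were the family, Arid3a, the 5 genes most correlated with Alpi and Akp3 (mean of at least 50 counts), and from each list up to 3 with the smallest adjusted p and the most abundant; others are given as list members. Some list members and searched words are not reported here. Animals with the same replicate number did not deviate together (correlations of -0.16 to 0.13). Alternatives were DESeq2 1.42.0, limma 3.58.1 (voom, and log2 TPM with pseudocounts 1 and 0.1), unrounded counts, RLE factors or library size alone in place of TMM, the filter removed or set to 10 counts in each sample, a replicate block, and leaving out each animal. Scripts were tested on simulated data.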

Additional observations from a re-analysis of the deposited data

How the results depend on the processing

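Alpi and Akp3 stayed called under every alternative run, with log2 fold changes of 1.69 to 1.96 and 2.33 to 2.82. The 2 called members were the same under each, and genes called over all genes numbered 3007 to 5571. Library size alone moved the median of all genes from -0.03 to -0.16 and log2 TPM to -0.10 (pseudocount 1) or -0.13 (0.1); the split of higher and lower calls, 2298 and 1869, became 1541 and 4030, 1420 and 2733, and 1405 and 2740. DESeq2 called 2599 higher.

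The replicate number did not pair the animals (1 of 5 correlations over 0.1). With it as a block in edgeR, 3052 genes were called. In an exact sign-flip permutation test, which cannot go below 0.0625, the log2 ratios of Alpl to Alpi (-1.85) and to Akp3 (-2.43) and the summed TPM (2.04) each gave p = 0.0625.

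Leaving out each animal, the log2 ratio of Akp3 to Alpi ranged from 0.43 to 0.83, called only without cKO replicate 5, and Alpi relative to enterocyte markers from -0.13 to 0.21. Pigt, at -0.01 in all animals, ranged from -0.032 to 0.0061, above 0 without WT replicate 2 or 3. Cd3g, at 0.18, ranged from -0.019 to 0.38, below 0 without WT replicate 4. The causes were not tested.

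Counts of called list genes, an alternative chosen after seeing the data, varied more. Leaving out each animal gave 4 to 5 transcription factors, 1 to 3 GPI anchor genes, 4 to 6 LPS genes, 1 to 3 nucleotide hydrolases, 9 to 14 brush border hydrolases, 4 to 10 enterocyte, 3 to 8 crypt, 1 to 3 proximal and 0 to 1 distal markers, 1 to 4 B and plasma cell, 0 to 3 macrophage, 0 to 3 fibroblast and 1 to 2 endothelial markers. Without the filter on low counts, 1 GPI anchor gene, 9 hydrolases, 4 enterocyte, 1 proximal, 0 distal, 1 B and plasma cell and 0 macrophage markers were called. With the block, 1 GPI anchor gene, 9 hydrolases, 0 distal and 1 B and plasma cell marker were called. With library size only, 1 zinc transporter, 1 nucleotide hydrolase and 3 GPI anchor genes, all 3 lower, were called, and with log2 TPM under either pseudocount 1 GPI anchor gene (lower), 1 zinc transporter, 3 LPS genes, 1 nucleotide hydrolase and 0 neutrophil markers. With at least 10 counts in every sample 0 T cell markers were called.

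Ratios with Alpl cannot be formed with a pseudocount of 0. Depth limits Alpl, where 0 to 7 counts show neither a change nor its absence.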
